A study of Mus musculus with 20 samples.

Results

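Mouse fibroblasts without heat shock factor 1 were compared with fibroblasts that carry it before any heat was applied, across every gene the arrays measured. The labels give the genotypes as HSF1 -/- (called KO here) and HSF1 +/+ (called WT here), both at 0 hours of heat shock, and describe the material as a cell line. Each genotype was measured on 3 arrays, numbered 1 to 3, so the means and differences come from 6 of the 20 arrays of the series, while the spread behind standard errors and p-values was estimated from all 20. The other arrays hold the same 2 genotypes at 7 times from 0.5 to 8 h of heat shock. On each array the sample carried Cy5 and a common pool of fibroblast mRNA carried Cy3, part of it from cells heated for 1 h. Each value is therefore a log ratio of sample to pool, treated as log2 and centred on the median of its array, and it gives a level relative to the pool rather than an absolute one. The members are the genes that at least 1 probe lists alone and that had enough values, which came to 10625 of 10843 genes.

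The labels call the samples a cell line and do not say how many lines stand behind each genotype, so the loss of HSF1 and any other difference between the cells of the 2 genotypes cannot be told apart. The labels give no strain, passage, clone or culture, so p-values measure the spread between arrays, which may be technical in part. Heated arrays of different times were pooled within groups, so this spread also includes any change with the time of heat. For genes that respond to heat, it can widen the standard errors of the differences before heat. The image numbers in the labels form a separate run for each genotype, so the order in which the images were numbered and the genotype cannot be told apart either.

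HSF1 is the transcription factor that binds heat shock elements, inverted repeats of GAA and TTC, in front of chaperone genes when proteins unfold. In unheated cells most of it is held inactive by chaperones, and it is also known to act without heat on genes outside the chaperones, in development and in tumours and the fibroblasts around them. Fibroblasts build and remodel the matrix around cells, send growth factor signals to neighbouring cells and keep a positional identity through developmental transcription factors.

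The 6 arrays held 39037 to 41796 values each. Pairs of arrays of 1 genotype correlated across probes with r of 0.688 to 0.795, and pairs of different genotypes with 0.590 to 0.738. By the SD over probes, values were spread more widely on the WT arrays (1.10 to 1.21) than on the KO arrays (0.92 to 1.09). By the median absolute deviation KO array 1 (1.12) was as wide as the WT arrays (1.08 to 1.12). KO arrays 2 (0.80) and 3 (0.90) were narrower. The part of this spread in the differences below was not tested. Hsf1 itself had no probe that lists it alone and was not analysed here. The heated arrays follow the labels: Hspa1a, an inducible HSP70 chaperone, stood at -1.90 on the WT array of 0.5 h and between 2.07 and 3.92 on the WT arrays of 1 to 8 h, and between -2.84 and -1.94 on all 7 heated KO arrays. Of 20 fibroblast markers 16 were measured, and as the pool is itself made of fibroblasts, a ratio near 0 shows a level like that of the pool and not presence or absence. The collagen gene Col1a1 lay between 1.23 and 2.01 on all 6 arrays, the matrix protein gene Sparc between 1.46 and 2.05 and the vimentin gene Vim between 1.37 and 1.79. Of the 16, 11 were above the pool on every one of the 6 arrays with a value, 1 was below it on every one and 4 were mixed, among them Pdgfra. Of the 16, 3 passed higher in KO cells and 1 lower (25% against 6.64% of all genes).

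Before heat, 705 of 10625 genes passed (limma, Benjamini-Hochberg adjusted p under 0.05), which is 6.64% of those tested. Of them 323 (3.04%) were higher in KO cells and 382 (3.6%) were lower. An unadjusted p under 0.05 (limma) was found for 2213 of the 10625 genes, the background for such counts in single lists below. A call is said to hold where it also passed with each of the 6 arrays left out in turn, and 291 genes (2.74%) held, 132 (1.24%) higher and 159 (1.5%) lower. Differences are KO minus WT means of 3 arrays each in log2 units, with the standard error (SE) of the fit after ±. The median of all genes was 0.05, so a difference is close to that relative to the median gene. Values on the KO arrays lay wholly above those on the WT arrays for 13.2% of genes and wholly below for 11.9%, which makes 25.1% without overlap. With the spread estimated from the 6 arrays alone 109 genes passed (1.03%), and 97 of the genes that held were among them. Without KO array 3 the count was 423 and without KO array 2 it was 458. Which direction was the more frequent depended on the scaling, since 286 genes were lower and 408 higher without centring, 232 and 376 after quantile normalization, and 225 and 295 after scaling of array width. The genes nearest to the threshold were Zbtb18 just inside (adjusted p = 0.04998) and Med7 just outside (0.05002).

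**Figure D1:**
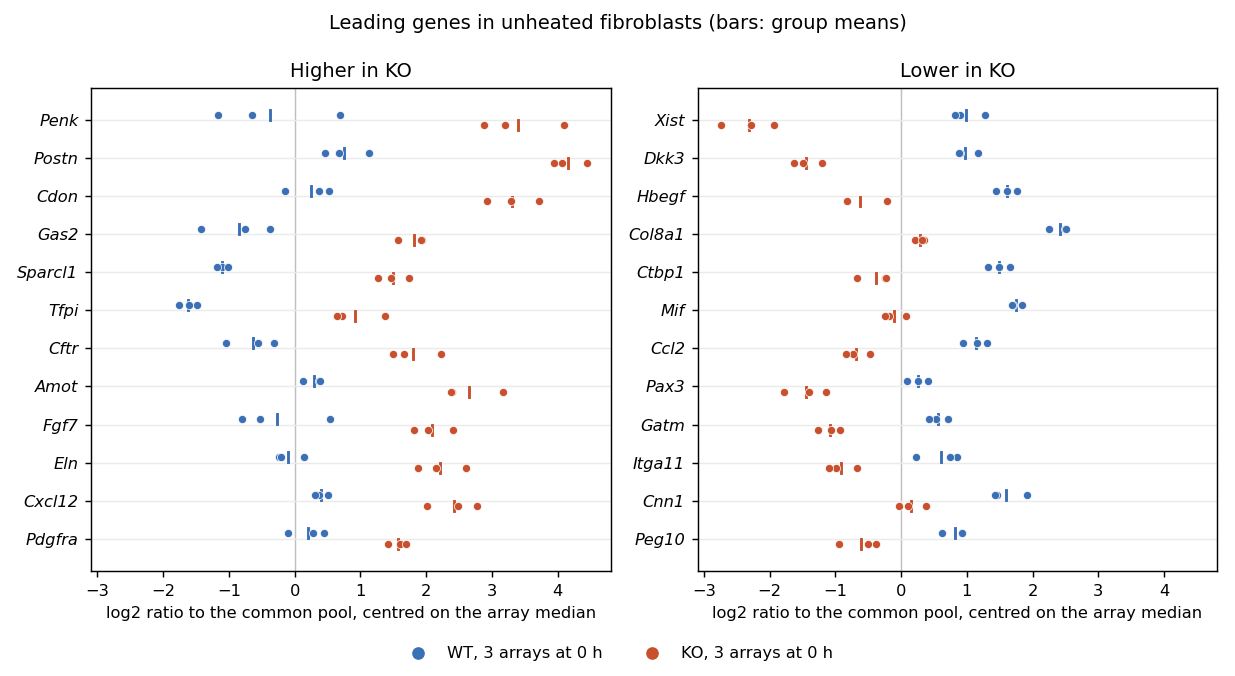
Level of 24 genes that held, on each of the 6 arrays of unheated cells, as the log2 ratio to the common pool centred on the array median. Points are arrays (WT blue, KO orange), bars are group means, and in each gene shown the 3 KO values lie wholly on one side of the 3 WT values.

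Several of the largest rises were in genes for secreted and surface proteins. Penk, which encodes the precursor of the enkephalin opioid peptides, stood at -0.64, -1.16 and 0.69 on the WT arrays and 3.21, 2.88 and 4.10 on the KO arrays. No KO array came within 2 log2 units of a WT array, and the difference was 3.77 ± 0.43 (13.6-fold higher, adjusted p = 6.16e-05). Postn, the matrix protein periostin of wound repair, read 0.68, 0.46 and 1.12 on the WT arrays and 4.45, 4.06 and 3.94 on the KO arrays. Every KO value lay more than 2 log2 units above every WT value (3.40 ± 0.22, 10.5-fold higher, adjusted p = 1.42e-07). Cdon, a surface receptor that helps cells bind hedgehog ligands, was at 0.37, 0.52 and -0.14 on the WT arrays and 3.72, 3.29 and 2.93 on the KO arrays, a difference of 3.06 ± 0.50 (8.36-fold higher). Gas2, a protein that links actin filaments and microtubules and is known from growth-arrested fibroblasts, was at -1.42, -0.75 and -0.38 on the WT arrays and 1.93, 1.92 and 1.57 on the KO arrays. The groups did not overlap and differed by 2.66 ± 0.35. Sparcl1, a matrix protein related to SPARC, was at -1.11, -1.01 and -1.19 on the WT arrays and 1.46, 1.27 and 1.75 on the KO arrays (2.60 ± 0.23). Tfpi, the inhibitor of the tissue factor step of clotting, was at -1.49, -1.60 and -1.76 on the WT arrays and 0.73, 0.65 and 1.37 on the KO arrays (2.53 ± 0.26).

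Further down the same order stood genes of several kinds. The chloride channel gene Cftr (2.44 ± 0.43), the junction protein gene Amot (2.35 ± 0.32) and Kctd12 (2.27 ± 0.22) were higher in KO cells with no overlap between groups. So were the calcium-binding protein gene S100a1 (2.17 ± 0.26) and the angiotensin receptor gene Agtr2 (2.10 ± 0.37). The hemicentin gene Hmcn1 (2.48 ± 0.37), the scaffold gene Iqgap2 (2.25 ± 0.41), the scramblase-family gene Plscr2 (2.13 ± 0.35) and the transcription factor gene Sp5 (2.38 ± 0.48) were also among the 20 largest rises that held. Sp5, known as a target of Wnt signalling, read -0.35, -0.63 and -0.76 on the WT arrays and 0.74, 2.12 and 2.54 on the KO arrays, and KO array 1 lay clearly below the other 2. In the fit to the 6 arrays alone, Hmcn1, Iqgap2, Plscr2 and Sp5 did not pass.

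**Figure D2:**
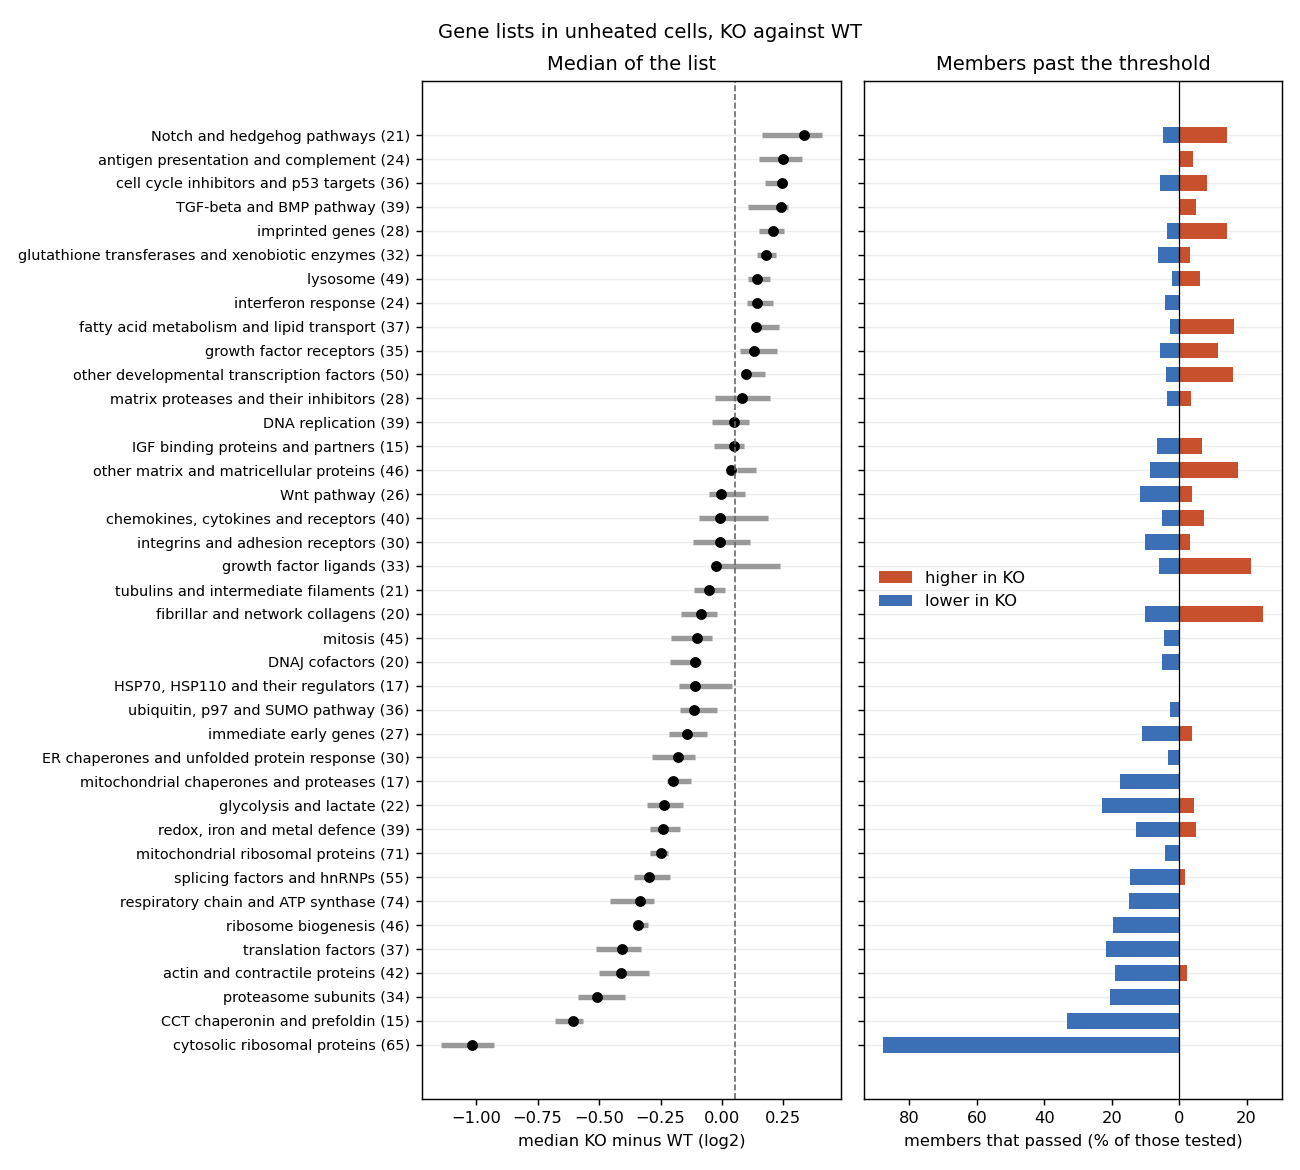
Left, median KO minus WT difference (log2) of each functional list with 15 or more tested genes, with the range of that median when each array is left out (grey bars) and the median of all genes (dashed line). Right, the share of each list's tested genes that passed higher (orange, to the right) or lower (blue, to the left) in KO cells. Numbers of tested genes stand in parentheses, and cytosolic ribosomal proteins lie farthest to the left with a median of -1.02.

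Genes for the matrix around the cells passed in both directions, and some of the largest rises were among them. Of 46 measured matrix and matricellular proteins other than collagens 8 passed higher and 4 lower (26.1% against 6.64% of all genes), with a median of 0.04. Those that rose and held included Postn and Sparcl1 above and Eln, which encodes elastin, at -0.23, -0.20 and 0.14 on the WT arrays and 2.15, 1.88 and 2.61 on the KO arrays (2.31 ± 0.23, adjusted p = 2.25e-05). Aspn, a small leucine-rich proteoglycan that binds collagen, stood at 1.55, 1.16 and 2.28 on the WT arrays and 4.20, 3.55 and 3.47 on the KO arrays (2.08 ± 0.31). Ogn, a second small leucine-rich proteoglycan, was higher by 1.63 ± 0.35, and Abi3bp, a matrix protein that is in none of these lists, by 2.26 ± 0.26. None of the 4 lower ones held: Ccn1 (-1.46 ± 0.34), Tnc (-1.03 ± 0.26), Fn1 (-0.71 ± 0.20) and Fbln2 (-0.67 ± 0.16), which encode a growth-regulating matricellular protein, tenascin C, fibronectin and fibulin 2. With only the arrays of unheated cells, Ogn, Ccn1, Tnc, Fn1 and Fbln2 did not pass. Calls also ended with single arrays left out: Ccn1 without WT 1 or KO 2 (adjusted p up to 0.0584), Tnc without WT 1, WT 2, KO 2 or KO 3 (adjusted p up to 0.0839), Fn1 without WT 1, WT 2, WT 3, KO 1, KO 2 or KO 3 (adjusted p up to 0.115) and Fbln2 without WT 1 or KO 2 (adjusted p up to 0.0614). Other settings ended these calls: Tnc (quantile normalization and scaling of array width), Fn1 (no centring, quantile normalization and scaling of array width) and Fbln2 (no centring).

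Collagen genes also went both ways. Of 20 measured 5 passed higher and 2 lower (35% against 6.64% of all genes), with a median of -0.08. Col6a1 and Col6a2, which encode 2 of the chains of collagen VI, a microfibril collagen, moved together. Col6a1 read 0.28, 0.38 and 0.46 on the WT arrays and 1.71, 1.62 and 1.78 on the KO arrays (1.33 ± 0.19, adjusted p = 0.000462), and Col6a2 read 0.09, 0.03 and -1.02 on the WT arrays and 1.76, 1.32 and 1.69 on the KO arrays (1.89 ± 0.24, adjusted p = 0.00014). For both genes every KO array lay above every WT array. The fibrillar collagens Col2a1 (1.00 ± 0.26), Col11a1 (0.75 ± 0.18) and Col3a1 (0.53 ± 0.14) passed without holding. Lower in KO cells were Col8a1, a short-chain collagen of vessels and corneas, at 2.50, 2.25 and 2.51 on the WT arrays and 0.34, 0.21 and 0.31 on the KO arrays (-2.13 ± 0.20, 4.38-fold lower, adjusted p = 1.11e-05), and the basement membrane collagen Col4a2 (-0.86 ± 0.19). The Col8a1 values lay within 0.3 log2 units of each other in each genotype. None of 13 collagen processing enzymes passed in limma, while 2 had an unadjusted p under 0.05 (2213 of all 10625 genes had). The 2 were the prolyl hydroxylase gene P4ha1 (-0.70 ± 0.22) and the prolyl isomerase gene Ppib (-0.46 ± 0.19). When the spread came from the 6 arrays alone, Col6a2, Col2a1, Col11a1, Col3a1 and Col4a2 did not pass. Leaving out 1 array ended some calls: Col2a1 without WT 1, KO 1 or KO 3 (adjusted p up to 0.112), Col11a1 without WT 1, WT 2, KO 1 or KO 3 (adjusted p up to 0.0687) and Col3a1 without WT 3, KO 1 or KO 2 (adjusted p up to 0.0985).

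Receptors that anchor cells to the matrix passed in both directions. Of 30 integrins and adhesion receptors 3 passed lower and held, and 1 passed higher (13.3% against 6.64% of all genes), while after quantile normalization or scaling of array width 3 passed in each direction. Itga11, the alpha chain of a collagen receptor of fibroblasts, stood at 0.22, 0.85 and 0.75 on the WT arrays and -1.0, -0.67 and -1.10 on the KO arrays (-1.53 ± 0.29, adjusted p = 0.00387). Itga6, a chain of laminin receptors, was lower (-1.01 ± 0.15), as was Cd44, the hyaluronan receptor (-0.86 ± 0.18). The higher one was the GPI-anchored cadherin gene Cdh13 (0.75 ± 0.21). Matrix proteases and their inhibitors gave 1 higher and 1 lower of 28 (7.14%, near the 6.64% of all genes), and neither held. The higher one was Reck, a membrane inhibitor of metalloproteases (1.31 ± 0.23, with a value on 2 of the 3 WT arrays). The lower one was the serine protease gene Htra1 (-0.89 ± 0.21), whose 2 probes read -1.87 and 0.087. Fitted to the 0 h arrays alone, Itga6, Cd44, Cdh13, Reck and Htra1 did not pass. With 1 array removed these did not pass: Cdh13 without WT 1, WT 3, KO 1 or KO 3 (adjusted p up to 0.137) and Htra1 without WT 1 or KO 2 (adjusted p up to 0.0584). A change of setting ended the call of Itga6 (1 probe per gene and probes with all 20 values), Cd44 (1 probe per gene) and Cdh13 (1 probe per gene and array weights).

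Growth factor ligands contained some of the largest changes of either direction. Of 33 measured 7 passed higher and 2 lower (27.3% against 6.64% of all genes), and 4 and 1 held. Fgf7, a fibroblast factor that acts on epithelial cells, stood at -0.80, 0.54 and -0.53 on the WT arrays and 2.41, 2.04 and 1.81 on the KO arrays (2.35 ± 0.40, adjusted p = 0.00166). The guidance ligand Sema3c (1.79 ± 0.24, 3 probes from 0.40 to 2.80), the heparin-binding factor Ptn (1.51 ± 0.29, 5 probes from 1.35 to 1.74) and the progranulin gene Grn (1.13 ± 0.21) also held. Hbegf, a ligand of the epidermal growth factor receptor, went the other way, at 1.62, 1.44 and 1.76 on the WT arrays and -0.83, -0.22 and -0.82 on the KO arrays (-2.23 ± 0.36, 4.68-fold lower, adjusted p = 0.00105). Its 2 probes read -2.51 and -1.95, and no KO value reached a WT value. Mdk, the close relative of Ptn, was lower (-2.01 ± 0.56) and did not hold, with WT values of 0.30, 0.97 and 2.82. Without the heated arrays in the fit, Ptn, Grn and Mdk did not pass. Omitting 1 array lost these calls: Mdk without WT 3, KO 1, KO 2 or KO 3. Under another setting the call was lost for Mdk (scaling of array width and array weights).

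On the receptor side 4 of 35 passed higher and 2 lower (17.1% against 6.64% of all genes). Pdgfra, the alpha receptor of platelet-derived growth factors and a fibroblast marker, read 0.45, 0.28 and -0.11 on the WT arrays and 1.61, 1.41 and 1.69 on the KO arrays (1.36 ± 0.20, adjusted p = 0.000434, 3 probes from 1.37 to 1.49). Il6st, the shared signalling chain of the interleukin 6 family, was higher by 0.84 ± 0.17. F2r, the thrombin receptor, was lower at 2.14, 2.05 and 1.5 on the WT arrays and 0.59, 0.46 and 0.54 on the KO arrays (-1.36 ± 0.20, adjusted p = 0.000462), as was the receptor kinase gene Axl (-0.75 ± 0.15). Every KO array lay on one side of the WT arrays for these 4 genes. The receptor kinase genes Fgfr1 (0.89 ± 0.21) and Fgfr3 (0.98 ± 0.24) passed without holding, and the 3 probes of Fgfr1 ranged from -0.17 to 1.46. On the unheated arrays alone, Il6st, Axl, Fgfr1 and Fgfr3 did not pass. Calls also ended with single arrays left out: Fgfr1 without WT 3, KO 2 or KO 3 (adjusted p up to 0.0708) and Fgfr3 without WT 1, WT 2 or KO 1 (adjusted p up to 0.0841). Other settings ended these calls: Axl (1 probe per gene).

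Signalling pathways of development held some of the large differences. In the Wnt list 1 of 26 passed higher and 3 lower (15.4% against 6.64% of all genes). Sfrp2, a secreted Wnt modulator, stood at 0.89, 0.32 and -0.25 on the WT arrays and 2.67, 2.56 and 2.19 on the KO arrays (2.15 ± 0.28, adjusted p = 0.00019), and Dkk3, a secreted member of the Dickkopf family, at 0.89, 0.87 and 1.16 on the WT arrays and -1.63, -1.20 and -1.49 on the KO arrays (-2.42 ± 0.26, 5.34-fold lower, adjusted p = 3.48e-05). The 2 probes of Dkk3 read -2.46 and -2.38, and the groups were far apart on every array. The receptors Ror2 (-0.89 ± 0.22) and Fzd8 (-0.83 ± 0.22) passed lower without holding. In the Notch and hedgehog list 3 of 21 passed higher and 1 lower (19%), with a median of 0.34. Cdon and Gas1, both co-receptors of hedgehog ligands, held, and Gli3, a transcription factor that carries the hedgehog signal, did not hold (0.79 ± 0.23). Gas1 was higher by 0.86 ± 0.18 as the mean of 2 probes that read -1.53 and 3.25, so its call rests on 1 of them. The 1 lower gene of the list was Hey2, a Notch target (-0.86 ± 0.23). In the TGF-beta and BMP list 2 of 39 passed higher and 0 lower (5.13%, where 3.04% of all genes passed higher). They were the TGF-beta receptor gene Tgfbr2 (1.22 ± 0.20) and the activin receptor gene Acvr1b (0.79 ± 0.19). The median of this list was 0.24. Its KO arrays lay wholly above the WT arrays in 12 genes (13.2% of all genes) and wholly below in 6 (11.9%). Tgfbr2 stood at 0.66, 0.60 and 0.80 on the WT arrays and 2.38, 1.49 and 1.85 on the KO arrays. In the fit to the 6 arrays alone, Ror2, Fzd8, Gli3, Gas1, Hey2, Tgfbr2 and Acvr1b did not pass. Leaving out 1 array ended some calls: Ror2 without WT 1, WT 3, KO 2 or KO 3 (adjusted p up to 0.0898), Fzd8 without WT 1, WT 3, KO 2 or KO 3 (adjusted p up to 0.112), Gli3 without WT 1, WT 2, WT 3, KO 1 or KO 3 (adjusted p up to 0.163), Hey2 without WT 1, KO 1 or KO 3 (adjusted p up to 0.13) and Acvr1b without KO 2 or KO 3 (adjusted p up to 0.07). A change of setting ended the call of Ror2 (1 probe per gene), Fzd8 (quantile normalization and scaling of array width), Gli3 (array weights) and Hey2 (no centring).

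Chemokines and cytokines differed in opposite directions. Of 40 measured, with their receptors, 3 passed higher and 2 lower (12.5% against 6.64% of all genes), and the median was -0.01. Cxcl12, the chemokine that retains blood cell precursors near stromal cells, stood at 0.38, 0.51 and 0.31 on the WT arrays and 2.77, 2.01 and 2.48 on the KO arrays (2.02 ± 0.21, 4.05-fold higher, adjusted p = 2.5e-05). Ccl2, a chemokine that draws monocytes, stood at 1.31, 1.15 and 0.94 on the WT arrays and -0.48, -0.73 and -0.84 on the KO arrays (-1.82 ± 0.39, adjusted p = 0.0079). Mif, a cytokine with tautomerase activity, was at 1.70, 1.69 and 1.83 on the WT arrays and 0.08, -0.18 and -0.24 on the KO arrays (-1.85 ± 0.20, adjusted p = 3.48e-05). None of these 3 genes had overlapping groups. Cxcl1, which attracts neutrophils, was higher by 1.93 ± 0.43. Of 24 genes of the interferon response 1 passed (4.17%, against 6.64% of all genes in either direction and 3.6% lower). It was the antiviral membrane protein gene Ifitm3, which was lower (-1.20 ± 0.16, 5 probes from -1.60 to -0.56). Of 24 genes of antigen presentation and complement 20 had a positive difference, with a median of 0.25. Of these 24 genes 1 passed (4.17%), the complement regulator Cd55 (0.75 ± 0.21). With only the arrays of unheated cells, Cd55 did not pass. With 1 array removed these did not pass: Cxcl1 without KO 2 (adjusted p = 0.051) and Cd55 without WT 2, WT 3, KO 1, KO 2 or KO 3 (adjusted p up to 0.146). Under another setting the call was lost for Cd55 (quantile normalization, scaling of array width and 1 probe per gene).

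Among 50 measured developmental transcription factors 8 rose and 2 fell (20% against 6.64% of all genes), and 3 and 1 held. Ebf1, a factor known from B cells and from fat and stromal precursors, stood at 0.01, 0.14 and -0.32 on the WT arrays and 1.68, 1.36 and 1.55 on the KO arrays (1.58 ± 0.19, adjusted p = 9.67e-05). Tbx15, a T-box factor of limb and skin mesenchyme, was higher by 1.31 ± 0.24 over 8 probes (0.49 to 2.19), and the nuclear receptor Nr2f2 by 0.76 ± 0.17 over 3 (0.67 to 0.85). Pax3, a factor of the neural crest and of muscle precursors, was lower at 0.26, 0.40 and 0.10 on the WT arrays and -1.40, -1.15 and -1.78 on the KO arrays (-1.69 ± 0.23, adjusted p = 0.000243, 4 probes from -2.17 to -1.15). The KO arrays of Pax3 were all at least 1 log2 unit below the WT arrays. Hand1, a factor of heart and limb mesenchyme, had the largest difference of the list but values on 2 of the 3 WT arrays, so that it did not hold (2.50 ± 0.56). The mesenchymal factor Prrx1 passed higher without holding (0.95 ± 0.25, 6 probes from -0.11 to 1.39). Of 10 measured HOX genes, which record position along the body axes, 1 passed (10% against 6.64% of all genes). It was Hoxd11, at -0.81, -0.70 and -1.05 on the WT arrays and -0.16, 0.30 and 0.10 on the KO arrays (0.93 ± 0.18, adjusted p = 0.00386). The other 9 lay between -0.59 and 0.56. When the spread came from the 6 arrays alone, Tbx15, Nr2f2, Hand1, Prrx1 and Hoxd11 did not pass. Omitting 1 array lost these calls: Prrx1 without WT 1, WT 2 or KO 1 (adjusted p up to 0.182). Other settings ended these calls: Tbx15 (1 probe per gene), Nr2f2 (1 probe per gene), Hand1 (scaling of array width) and Prrx1 (probes with all 20 values).

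Imprinted genes, which are expressed from 1 parental copy, were followed as a list because many are growth regulators of mesenchyme. Of 28 measured 4 passed higher and 1 lower (17.9% against 6.64% of all genes), with 20 positive differences and a median of 0.21. Plagl1, a zinc finger factor that restrains growth, stood at 0.69, 0.56 and 1.21 on the WT arrays and 2.71, 2.28 and 2.07 on the KO arrays (1.53 ± 0.29, adjusted p = 0.0035). The long noncoding RNA Meg3 was higher by 0.92 ± 0.15 over 5 probes (0.41 to 1.47), the growth factor gene Igf2 by 0.59 ± 0.14 over 4 (0.27 to 1.04) and the cyclin kinase inhibitor gene Cdkn1c by 0.52 ± 0.14 over 3 (0.48 to 0.55). Peg10, a retrotransposon-derived gene, was lower at 0.93, 0.92 and 0.62 on the WT arrays and -0.50, -0.39 and -0.94 on the KO arrays (-1.43 ± 0.23, adjusted p = 0.000919). Groups did not overlap in these 5 genes. Fitted to the 0 h arrays alone, Plagl1, Meg3, Igf2 and Cdkn1c did not pass. Calls also ended with single arrays left out: Igf2 without WT 3 or KO 2 (adjusted p up to 0.076) and Cdkn1c without WT 1, WT 2, WT 3, KO 1, KO 2 or KO 3 (adjusted p up to 0.0908). A change of setting ended the call of Meg3 (1 probe per gene), Igf2 (scaling of array width and 1 probe per gene) and Cdkn1c (quantile normalization, scaling of array width and 1 probe per gene).

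Xist, a noncoding RNA that silences 1 X chromosome in female cells, had the largest fall of all genes. It stood at 0.89, 0.81 and 1.27 on the WT arrays and -2.28, -1.93 and -2.73 on the KO arrays (-3.31 ± 0.23, 9.9-fold lower, adjusted p = 2.52e-07). Of its 4 probes 3 read between -5.17 and -3.63 and the other read 0.49, so the mean understates what 3 probes show. On 1 of those 3 probes the WT arrays stood at 2.13, 1.82 and 2.26 and the KO arrays at -2.97, -2.41 and -3.19. Of the other measured genes of the list, the X-linked Eif2s3x (-1.03 ± 0.16) and Ddx3x (-0.83 ± 0.20) were lower. Eif2s3y on the Y chromosome had a difference of -0.07 ± 0.21 with overlapping arrays (limma, adjusted p = 0.905). The sign of this Eif2s3y value changed without centring and without KO array 3 or WT array 2. Kdm5c (0.09 ± 0.18) and Kdm6a (-0.25 ± 0.20), which are X-linked too, did not pass. Without the heated arrays in the fit, Eif2s3x and Ddx3x did not pass. Leaving out 1 array ended some calls: Ddx3x without WT 3, KO 2 or KO 3 (adjusted p up to 0.0989). Under another setting the call was lost for Ddx3x (quantile normalization, scaling of array width and 1 probe per gene).

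Position on the chromosomes was also described. The medians of the autosomes and the X chromosome lay between -0.00 and 0.10, and the Y chromosome had 1 measured gene (-0.07). The 334 measured genes of the X chromosome had a median of 0.08. Of them 11 passed higher (3.29% against 3.04% of all genes) and 20 lower (5.99% against 3.6%). Along the chromosomes, 203 blocks of 50 to 96 neighbouring genes (20 of them larger than 50) had medians of -0.17 to 0.26. Of the 21701 probes that list 1 gene, 63 had a value on all 3 KO arrays and on none of the WT arrays, and 5 the reverse, and these could not be tested. The WT arrays held fewer values in all (39037 to 40881) than the KO arrays (41415 to 41796). Each of the 63 probes had values on some heated WT arrays, so they do not mark genes found in KO cells alone. Around Hsf1 itself, the 20 nearest measured genes on each side had a median of 0.02. Of these 40 genes 1 passed higher and 2 lower (7.5%, near the 6.64% of all genes). They were Nrbp2, a pseudokinase gene, at 0.09, -0.07 and -0.30 on the WT arrays and 1.05, 0.91 and 0.95 on the KO arrays (1.07 ± 0.21), and Rpl8 and Myh9, which also belong to the ribosomal and actin lists. On the unheated arrays alone, Nrbp2 did not pass.

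The other large falls that held were spread over many functions. Ctbp1, a transcriptional corepressor, was at 1.48, 1.32 and 1.66 on the WT arrays and -0.25, -0.22 and -0.67 on the KO arrays (-1.87 ± 0.16), as the mean of 3 probes that read -4.21, -1.5 and 0.11. Gatm, the first enzyme of creatine synthesis, stood at 0.53, 0.71 and 0.42 on the WT arrays and -0.93, -1.07 and -1.26 on the KO arrays (-1.64 ± 0.26), Ebpl, a relative of a sterol isomerase, at 1.75, 1.79 and 1.66 on the WT arrays and 0.27, -0.05 and 0.02 on the KO arrays (-1.65 ± 0.21), and Pmepa1, a membrane protein that dampens TGF-beta signalling, at 0.47, 0.33 and 1.84 on the WT arrays and -0.93, -0.94 and -0.70 on the KO arrays (-1.74 ± 0.32). In each of the 3 the groups were separate. Sap18 (-1.58 ± 0.19, 6 probes from -2.07 to -1.31) and Sap18b (-1.70 ± 0.24), which encode nearly identical corepressor subunits, share sequence and are not independent. Aif1l (-2.0 ± 0.37), an actin-binding protein, Frmd6 (-1.70 ± 0.34), a scaffold of the Hippo pathway, the adaptor Sh3d19 (-1.61 ± 0.27), the methyltransferase Prmt8 (-1.60 ± 0.23) and the kinase Abl1 (-1.52 ± 0.30) were lower as well. Zdhhc16, a palmitoyltransferase, was lower (-1.66 ± 0.24) as the mean of 2 probes at -3.08 and -0.20. In the fit to the 6 arrays alone, Pmepa1, Aif1l, Frmd6, Sh3d19, Prmt8 and Abl1 did not pass.

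Genes for cytosolic ribosomal proteins, the protein components of the ribosome, were lower in KO cells almost throughout. Of 65 tested 57 passed lower and 0 higher (87.7% against 6.64% of all genes), and 43 held. All 65 differences were below 0, from -1.39 to -0.38 with a median of -1.02. In 61 of them every KO array lay below every WT array (11.9% of all genes did so). Rps14 of the small subunit stood at 1.82, 1.83 and 1.94 on the WT arrays and 0.66, 0.38 and 0.40 on the KO arrays (-1.38 ± 0.17, adjusted p = 0.000117, 3 probes from -1.41 to -1.34). Rpl36 of the large subunit stood at 1.77, 1.72 and 1.77 on the WT arrays and 0.74, 0.47 and 0.32 on the KO arrays (-1.25 ± 0.16, adjusted p = 0.00019, 5 probes from -1.45 to -1.03). Rpl6 (-1.28 ± 0.18), Rps26 (-1.29 ± 0.17), Rps13 (-1.35 ± 0.18) and Rpl35a (-1.39 ± 0.22) were lower as well. By subunit, 21 of 23 small-subunit genes passed with a median of -1.05, and 35 of 41 large-subunit genes with a median of -0.97. The median of the list relative to the WT mean was 0.03, -0.16 and 0.12 on the 3 WT arrays and -0.75, -1.12 and -1.14 on the 3 KO arrays, with KO array 1 the nearest to WT. The spread of the arrays, narrower on KO arrays 2 and 3, moves with this group, and its part was not tested. After quantile normalization 49 passed with a median of -0.71, after scaling of array width 49 with -0.73, and in the fit to the 6 arrays alone 11.

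**Figure D3:**
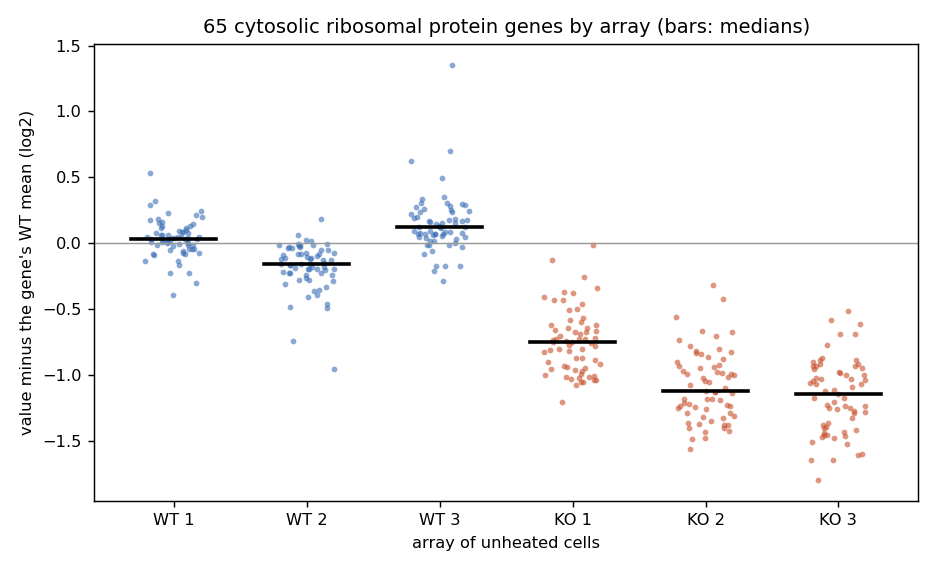
Each point is 1 of 65 cytosolic ribosomal protein genes on 1 array of unheated cells, as its log2 value minus the mean of the 3 WT arrays for that gene. Black bars are medians, which lie between -0.16 and 0.12 on the WT arrays and between -1.14 and -0.75 on the KO arrays.

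Transcripts of ribosomal proteins are known for a run of pyrimidines at their very start, through which their translation follows nutrient signals. In the windows of RefSeq gene starts of build GRCm38.p6, which matched 8572 of the 10625 genes, CTTTC or CTTTT (sense strand only) lay within 15 bases of the annotated start in 18 of 51 ribosomal protein genes (35.3%) and in 7.35% of all genes. Among other genes that passed lower the share was 7.69%. The starts of the 4 ribosomal protein genes of smallest p among those that held and carry the motif are shown with the motif in capitals, from 15 bases before the annotated start to 15 after it: Rps26 at chr10:128626492-128626521 (minus strand), Rpl35 at chr2:39005117-39005146 (minus), Rpl35a at chr16:33056467-33056496 (plus) and Rps6 at chr4:86857353-86857382 (minus).
Rps26: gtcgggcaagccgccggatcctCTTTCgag
Rpl35: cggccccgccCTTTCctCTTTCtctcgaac
Rpl35a: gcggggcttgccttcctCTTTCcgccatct
Rps6: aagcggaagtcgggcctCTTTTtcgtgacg
In Rps26, Rpl35a and Rps6 the motif lies just after the annotated start, and in Rpl35 a copy lies on each side of it. The match is a description of these letters and no measure of where transcription began in these cells.

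Other parts of the protein-making machinery gave lower calls as well, with smaller medians. Of 37 translation factors 8 passed lower and 0 higher (21.6% against 6.64% of all genes), with a median of -0.41. The elongation factor subunits Eef1b2 (-1.19 ± 0.21), Eef1d (-1.01 ± 0.20) and Eef1g (-0.93 ± 0.16) held, and Eef1d read 2.04, 1.92 and 1.96 on the WT arrays and 1.07, 0.86 and 0.97 on the KO arrays. Of 46 ribosome biogenesis genes 9 passed lower and 0 higher (19.6%), with a median of -0.34. Among them Gnl3, a nucleolar GTPase (-1.08 ± 0.17), Npm1, the nucleolar protein nucleophosmin (-1.03 ± 0.22), and Wdr43, a factor of small-subunit assembly (-0.90 ± 0.16), held. Of 55 splicing factors and hnRNPs 8 passed lower and 1 higher (16.4%), with a median of -0.30. Hnrnpa1, which binds nuclear pre-mRNA, stood at 3.94, 3.08 and 3.56 on the WT arrays and 2.40, 2.13 and 1.72 on the KO arrays (-1.44 ± 0.24), and Snrpa1, a U2 particle protein, was lower (-0.92 ± 0.18). The 3 lists had 6, 5 and 3 lower members after quantile normalization. Of 71 mitochondrial ribosomal proteins 3 passed lower and 0 higher (4.23%, where 3.6% of all genes passed lower), and none held. Their median was -0.25 and 56 differences were below 0. In 21 of the 71 the KO arrays lay wholly below the WT arrays (11.9% of all genes did so), and in 1 wholly above (13.2%). With only the arrays of unheated cells, Eef1b2, Eef1g, Gnl3, Npm1, Wdr43, Hnrnpa1 and Snrpa1 did not pass. Other settings ended these calls: Npm1 (quantile normalization and scaling of array width) and Wdr43 (1 probe per gene).

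The proteasome, which degrades tagged proteins, followed the same direction. Of 34 subunit genes 7 passed lower and 0 higher (20.6% against 6.64% of all genes), with a median of -0.51. In 18 of the 34 the KO arrays lay wholly below the WT arrays (11.9% of all genes did so). Psmd8, a subunit of the regulatory particle, held at 1.63, 1.45 and 1.81 on the WT arrays and 0.79, 0.47 and 0.78 on the KO arrays (-0.95 ± 0.20, 6 probes from -1.24 to -0.28). After quantile normalization 2 of the 34 passed lower, with a median of -0.28, and after scaling of array width 4. Of 36 genes of the ubiquitin, p97 and SUMO pathway 1 passed (2.78%), the mitotic ubiquitin-conjugating enzyme gene Ube2c (-0.73 ± 0.21). When the spread came from the 6 arrays alone, Psmd8 and Ube2c did not pass. With 1 array removed these did not pass: Ube2c without WT 1, WT 3, KO 2 or KO 3 (adjusted p up to 0.153). A change of setting ended the call of Ube2c (no centring, quantile normalization, scaling of array width, 1 probe per gene and array weights).

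Chaperones are the best known targets of HSF1. Before heat 4 of 58 genes in 4 cytosolic lists passed (6.9% against 6.64% of all genes). All 4 were lower, and 3.6% of all genes passed lower. KO arrays lay wholly below WT arrays in 4 of 17 HSP70 and HSP110 genes and 4 of 20 DNAJ genes. This was also so for 7 of 14 HSP90 genes and 1 of 7 small heat shock proteins (11.9% of all genes). KO arrays lay wholly above in 1, 1, 0 and 0 genes of these lists (13.2% of all genes). The spread behind these calls includes the heated arrays, where Hspa1a ran from -1.90 at 0.5 h to 3.32 at 2 h on the WT arrays. Such change within a group widens the SE of genes that heat induces and makes their baseline differences harder to call. The share therefore does not show that these genes lack a baseline difference. Of 17 measured members of the HSP70 and HSP110 families and their regulators none passed in limma, with a median of -0.11. An unadjusted p under 0.05 was found for 3 of the 17 (2213 of all 10625 genes). Hspa1a, the inducible HSP70 gene, stood at -2.33, -2.76 and -2.36 on the WT arrays and -2.76, -2.66 and -2.37 on the KO arrays, with overlapping groups and a difference of -0.11 ± 0.80, so both genotypes lay far below the pool, part of which was heated. Hspa8, the constitutive HSP70 gene, stood at 1.73, 1.95 and 1.70 on the WT arrays and 1.34, 0.93 and 1.20 on the KO arrays, a difference of -0.64 ± 0.21 that did not pass although the groups did not overlap (adjusted p = 0.0853). Hsph1, the exchange factor of HSP70 (-0.56 ± 0.39), did not pass either, although its groups did not overlap. It stood at -0.53, -0.38 and -0.06 on the WT arrays and -0.74, -1.09 and -0.82 on the KO arrays. Its SE includes the WT arrays of 0.5 to 2 h, which ran from -0.83 to 1.62. Dnajb1, the J-domain cofactor of HSP70 (-0.34 ± 0.26), did not pass, and its groups overlapped. Of 20 DNAJ cofactors 1 passed, Dnajb5 (-0.73 ± 0.21). Of 14 genes of HSP90 and its co-chaperones 2 passed lower. These were Ahsa1, the activator of the HSP90 ATPase, at 0.92, 0.82 and 0.95 on the WT arrays and -0.35, -0.13 and -0.16 on the KO arrays (-1.11 ± 0.26, adjusted p = 0.0144), and the inducible HSP90 gene Hsp90aa1 (-0.72 ± 0.20, 11 probes of which 10 were below 0). Of 7 small heat shock proteins 1 passed lower, Hspb3 (-0.71 ± 0.20), while the lens and muscle chaperone Cryab (-0.30 ± 0.18) did not. None of these calls held. Fitted to the 0 h arrays alone, Dnajb5, Hsp90aa1 and Hspb3 did not pass. Omitting 1 array lost these calls: Dnajb5 without WT 1, WT 2, WT 3, KO 1, KO 2 or KO 3 (adjusted p up to 0.175), Ahsa1 without KO 1 (adjusted p = 0.0511), Hsp90aa1 without WT 1, WT 2, WT 3, KO 2 or KO 3 (adjusted p up to 0.175) and Hspb3 without WT 1, WT 3, KO 1 or KO 3 (adjusted p up to 0.114). Under another setting the call was lost for Dnajb5 (no centring, quantile normalization, scaling of array width, 1 probe per gene, no filter and array weights), Ahsa1 (quantile normalization and scaling of array width), Hsp90aa1 (no centring, quantile normalization, scaling of array width and 1 probe per gene) and Hspb3 (no centring, quantile normalization and scaling of array width).

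The chaperones of mitochondria and the chaperonin of the cytosol had calls that were all lower. Hspd1, the mitochondrial chaperonin, stood at 0.45, 0.30 and 0.81 on the WT arrays and -0.49, -0.60 and -0.32 on the KO arrays (-0.99 ± 0.19, adjusted p = 0.00389), with 6 of its 7 probes below 0. Its partner Hspe1 (-0.78 ± 0.24, adjusted p = 0.0583) just missed the threshold, with no overlap between groups. The mitochondrial HSP70 gene Hspa9 (-1.09 ± 0.32) and the import cofactor Dnajc19 (-0.67 ± 0.19) also passed. This makes 3 of 17 (17.6% against 6.64% of all genes), median -0.20. Of 15 genes of prefoldin and the CCT chaperonin, a cytosolic system that folds cytoskeletal proteins, 5 passed lower (33.3%), median -0.61. After quantile normalization 2 of the 15 passed, median -0.31. Cct6a held (-1.13 ± 0.25), and Tcp1 (-0.97 ± 0.24), Cct3 (-0.74 ± 0.18), Vbp1 (-1.0 ± 0.25) and Pfdn4 (-0.79 ± 0.21) passed without holding. Of 30 ER chaperones and genes of the unfolded protein response 1 passed (3.33%), Manf, a secreted protein of ER stress (-1.10 ± 0.18). Without the heated arrays in the fit, Hspd1, Hspa9, Dnajc19, Cct6a, Tcp1, Cct3, Vbp1, Pfdn4 and Manf did not pass. Calls also ended with single arrays left out: Hspd1 without WT 3 (adjusted p = 0.0541), Hspa9 without WT 1, KO 1, KO 2 or KO 3 (adjusted p up to 0.178), Dnajc19 without WT 1, WT 3, KO 2 or KO 3 (adjusted p up to 0.155), Tcp1 without WT 1, WT 2, KO 2 or KO 3 (adjusted p up to 0.0936), Cct3 without KO 2 or KO 3 (adjusted p up to 0.0697), Vbp1 without WT 3, KO 2 or KO 3 (adjusted p up to 0.101) and Pfdn4 without WT 1, WT 3, KO 2 or KO 3 (adjusted p up to 0.115). Other settings ended these calls: Hspd1 (1 probe per gene), Hspa9 (no centring, quantile normalization, scaling of array width, 1 probe per gene and no filter), Dnajc19 (no centring, quantile normalization, scaling of array width, 1 probe per gene and probes with all 20 values), Cct6a (1 probe per gene), Tcp1 (1 probe per gene), Cct3 (no centring, quantile normalization, scaling of array width and 1 probe per gene), Vbp1 (quantile normalization, scaling of array width and 1 probe per gene) and Pfdn4 (quantile normalization and scaling of array width).

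Heat shock elements were looked for in the promoters because HSF1 binds them. In windows from 250 bases before to 50 after the RefSeq start (GRCm38.p6), the palindrome GAANNTTC, made of 2 units, occurred in 6.94% of all genes, in 6.1% of those that passed higher, in 10.8% of those that passed lower and in 14 of 76 cytosolic and mitochondrial chaperones (18.4%). A 3-unit element (GAANNTTCNNGAA or TTCNNGAANNTTC, reverse complements of each other that both contain the 2-unit form) occurred in 0.525% of all genes and in 5 of the 76 chaperones: Hspd1, Hspe1, Hsph1, Chordc1 and Dnajb6. All 5 had differences below 0 at baseline, with a median of -0.56, and 1 of them passed. Of all 10625 genes 4816 had a difference below 0. The 14 chaperones with GAANNTTC had a median of -0.49 with 13 below 0, and the 62 without it had a median of -0.16 with 38 below 0. The search took exact copies only. It found no 3-unit element in Hspa1a or Hspa1b, whose differences at 3 to 8 h were -5.95 and -6.01. Dnajb1 (-2.45 at 3 to 8 h) lacked GAANNTTC as well. A gene without a match may therefore still carry an element of another form. Among genes that passed lower the 3-unit element was found in 2 of 305 with a window (0.656%, near the 0.525% of all genes). Among those that passed higher it was found in 0 of 246. The 2 genes were Hspd1 and the ribosomal protein gene Rps18 (-1.32 ± 0.18). Their promoters are shown 5′ to 3′ on the gene's strand with the element in capitals: Hspd1 at chr1:55088016-55088120 (minus strand), 144 to 127 bases before the start, and Rps18 at chr17:33955825-33955915 (minus strand), 215 to 203 bases before it.
Hspd1: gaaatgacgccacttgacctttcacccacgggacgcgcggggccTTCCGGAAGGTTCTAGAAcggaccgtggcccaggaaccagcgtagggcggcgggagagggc
Rps18: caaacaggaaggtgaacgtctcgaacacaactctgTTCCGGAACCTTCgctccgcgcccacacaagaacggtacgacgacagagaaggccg
The element of Hspd1 runs over both 3-unit forms, and that of Rps18 holds 1. Whether HSF1 bound either in these cells was not tested.

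Energy metabolism gave mostly lower calls. Of 74 genes of the respiratory chain and ATP synthase 11 passed lower and 0 higher (14.9% against 6.64% of all genes). Their median was -0.33 over all 74. Cycs, which encodes cytochrome c, stood at 1.84, 1.61 and 1.75 on the WT arrays and 0.97, 0.69 and 0.49 on the KO arrays (-1.02 ± 0.18, 6 probes from -1.32 to -0.77), and Cox5a (-0.88 ± 0.18) and Atp5c1 (-0.83 ± 0.17) held as well. After quantile normalization 5 passed lower and 1 higher. The carrier Slc25a5, which exchanges ADP and ATP across the inner membrane, was lower (-1.31 ± 0.20). Of 22 genes of glycolysis 5 passed lower and 1 higher (27.3%). Ldha, which makes lactate, stood at 2.77, 2.68 and 2.74 on the WT arrays and 1.62, 1.43 and 1.82 on the KO arrays (-1.11 ± 0.24), and the enzyme genes Pgam1 (-1.29 ± 0.29) and Pgk1 (-0.85 ± 0.18) were lower too. The 1 higher gene was the other lactate dehydrogenase subunit, Ldhb (0.54 ± 0.16, 8 probes from -0.36 to 0.94), whose call did not hold. On the unheated arrays alone, Cycs, Cox5a, Atp5c1, Pgk1 and Ldhb did not pass. Leaving out 1 array ended some calls: Ldhb without WT 1, WT 2, WT 3, KO 1 or KO 3 (adjusted p up to 0.15). A change of setting ended the call of Pgam1 (scaling of array width), Pgk1 (quantile normalization, scaling of array width and 1 probe per gene) and Ldhb (quantile normalization, scaling of array width, no filter and array weights).

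Of 37 genes of fatty acid metabolism and lipid transport 6 passed higher and 1 lower (18.9% against 6.64% of all genes), and 27 differences were positive. Lipa, the acid lipase of lysosomes, stood at 0.56, 0.44 and 0.18 on the WT arrays and 1.89, 1.33 and 1.37 on the KO arrays (1.13 ± 0.19, adjusted p = 0.00109). Apoe, an apolipoprotein, was higher by 0.82 ± 0.18 over 4 probes that ranged from -0.86 to 1.81. Of 49 lysosomal genes 3 passed higher and 1 lower (8.16%, near the share of all genes), with 33 positive differences. Of 39 redox, iron and metal defence genes 5 passed lower and 2 higher (17.9%), 3 of the lower calls and 0 of the higher ones held, and 26 differences were negative, with a median of -0.24. Txn1, thioredoxin, stood at 2.18, 1.82 and 2.14 on the WT arrays and 1.13, 0.76 and 0.59 on the KO arrays (-1.22 ± 0.19, 7 probes from -1.42 to -1.05). Fth1, the heavy chain of the iron store ferritin (-1.12 ± 0.22), and Tfrc, the receptor that takes up iron (-1.42 ± 0.25), were lower together. Of 32 glutathione transferases and xenobiotic enzymes 2 passed lower and 1 higher (9.38% against 6.64% of all genes). Gsto1, an omega-class transferase, was at 0.73, 0.80 and 0.54 on the WT arrays and -0.57, -0.59 and -0.40 on the KO arrays (-1.22 ± 0.15). The higher one was Gstm1 (0.68 ± 0.13, 5 probes from -0.13 to 1.59). In the fit to the 6 arrays alone, Lipa, Apoe, Txn1, Fth1 and Gstm1 did not pass. Under another setting the call was lost for Fth1 (1 probe per gene) and Gsto1 (1 probe per gene).

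Genes of the contractile cytoskeleton mostly had differences below 0. Of 42 measured 8 passed lower and 1 higher (21.4% against 6.64% of all genes), 38 differences were below 0 and the median was -0.41. Cnn1, calponin of smooth muscle and of contractile fibroblasts, stood at 1.46, 1.92 and 1.43 on the WT arrays and 0.38, 0.10 and -0.03 on the KO arrays (-1.45 ± 0.25, adjusted p = 0.00185). Tagln2 (-1.15 ± 0.23), the membrane linker gene Msn (-1.24 ± 0.27) and the nonmuscle myosin gene Myh9 (-0.72 ± 0.16) were lower as well. A relative of Msn, Ezr, was the 1 higher gene (0.67 ± 0.18). After quantile normalization 2 of the 42 passed lower. None of 21 tubulins and intermediate filaments passed in limma (2 with an unadjusted p under 0.05, against 2213 of all 10625 genes). With only the arrays of unheated cells, Msn, Myh9 and Ezr did not pass. With 1 array removed these did not pass: Ezr without WT 1, WT 3, KO 1, KO 2 or KO 3 (adjusted p up to 0.132). Other settings ended these calls: Msn (quantile normalization), Myh9 (quantile normalization and scaling of array width) and Ezr (1 probe per gene and probes with all 20 values).

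Cell division was described by lists of DNA replication and mitosis genes. None of 39 DNA replication genes passed in limma (8 with an unadjusted p under 0.05, against 2213 of all 10625 genes). Of 45 mitosis genes 2 passed lower and 0 higher (4.44%, where 3.6% of all genes passed lower), Ube2c and the kinase subunit gene Cks1b (-0.87 ± 0.17). Ccnd2, a cyclin of the first growth phase, was lower at 0.82, 0.75 and 0.74 on the WT arrays and -0.09, -0.23 and -0.20 on the KO arrays (-0.94 ± 0.13, adjusted p = 0.000243, 12 probes from -1.17 to -0.50). The kinase inhibitor Cdkn1b was higher by 0.75 ± 0.19 without holding. Markers of other cell types were listed as well, since another kind of cell could be in the cultures. None of 16 epithelial, 11 endothelial, 13 adipocyte or 18 neural and glial markers passed in limma. An unadjusted p under 0.05 was found for 1, 3, 2 and 2 of them (2213 of all 10625 genes). Of 16 macrophage markers 2 passed lower, the antibody receptor gene Fcgr1 (-1.13 ± 0.26) and Cd68 (-0.83 ± 0.22), of 16 muscle markers 1 passed lower (Cnn1), and of 10 cartilage and bone markers 3 passed higher (Ogn, Col2a1 and Col11a1), or 12.5%, 6.25% and 30% of these 3 lists against 6.64% of all genes. In these bulk samples, fewer cells of a kind and less RNA per cell cannot be told apart, and the part of other cell types in the results was not tested. When the spread came from the 6 arrays alone, Cks1b, Ccnd2, Cdkn1b, Fcgr1 and Cd68 did not pass. Omitting 1 array lost these calls: Cdkn1b without WT 1, WT 2, KO 1 or KO 2 (adjusted p up to 0.0799), Fcgr1 without KO 2 (adjusted p = 0.0535) and Cd68 without WT 1, KO 2 or KO 3 (adjusted p up to 0.136). A change of setting ended the call of Cdkn1b (1 probe per gene), Fcgr1 (1 probe per gene and probes with all 20 values) and Cd68 (no centring, quantile normalization and scaling of array width).

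The baseline means do not use the heated arrays, but the spread behind the calls does, so the choice of held genes is not independent of them. All 7 heated time points gave the baseline sign for 211 of the 281 held genes that had a value at each time (75.1%), for 391 of 678 genes that passed (57.7%) and for 1039 of 9828 genes at large (10.6%). The arrays share the pool, and the baseline and heated arrays do not share samples. Of the 291 held genes 110 also passed in the first window (0.5, 1 and 2 h, where 2.32% of all genes passed), 194 in the later one (3, 4, 6 and 8 h, 6.48%) and 86 in both, all in the same direction, and 0 passed in the opposite one. Penk stood above WT by 3.75 in the first window and by 3.04 in the later one, Postn by 3.00 and 2.74, and Cdon by 2.52 and 2.24. For Xist the differences were -3.09 and -2.64. The median of the ribosomal protein genes was -0.34 in the first window, where 1 of 65 passed lower, and -0.74 in the later one, where 50 did.

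**Figure D4:**
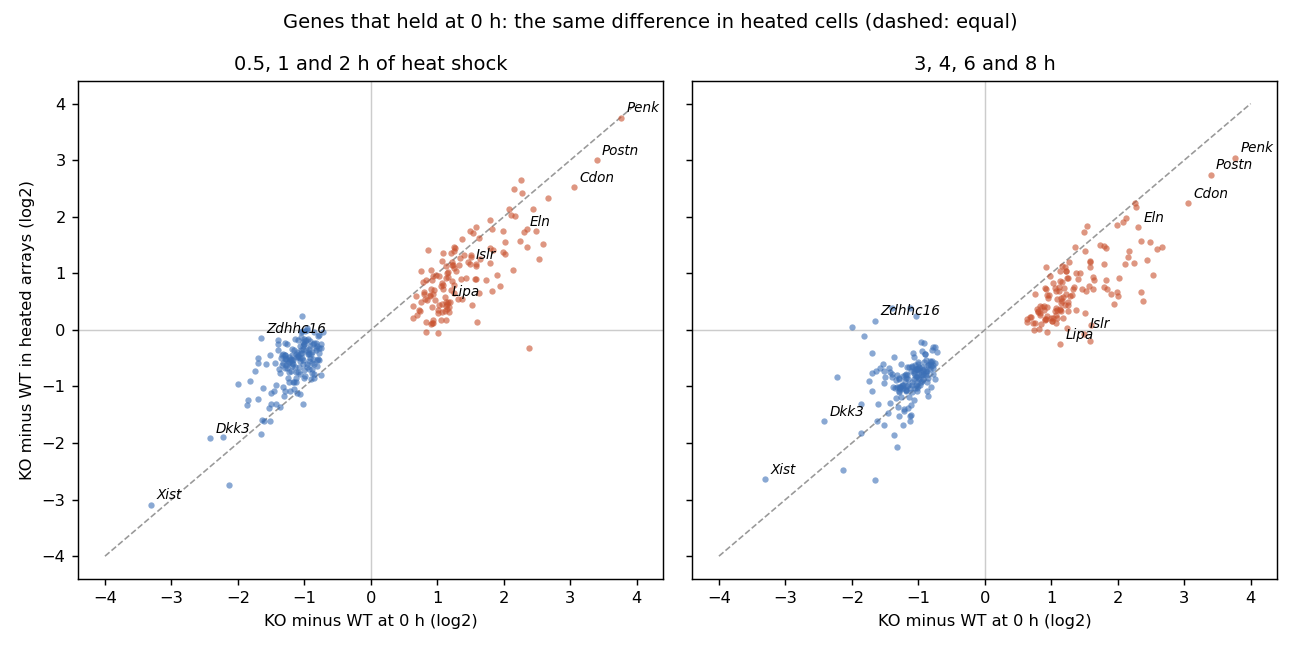
KO minus WT difference (log2) of the 291 genes that held at 0 h, at 0 h on the horizontal axis and in the heated arrays on the vertical axis, on the left for 0.5, 1 and 2 h and on the right for 3, 4, 6 and 8 h. Orange genes were higher and blue genes lower in KO cells at 0 h. Most points keep their side of 0, and Lipa, Islr and Zdhhc16 lie near 0 on the right.

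For 10 genes the KO minus WT difference of the later window itself differed from that at 0 h (limma, adjusted p under 0.05), and for none in the first window, where 889 genes had an unadjusted p under 0.05. In 3 of the 10 a baseline difference that passed was not seen in the later heated arrays. Islr, an immunoglobulin-domain protein of mesenchyme, went from 1.49 ± 0.21 at 0 h to -0.07, Lipa from 1.13 to -0.25 and Zdhhc16 from -1.66 to 0.16. In the other direction stood chaperones with small baseline differences, such as Hspa1a, whose difference went from -0.11 to -5.95.

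Across all 20 arrays some genes with strong baseline differences had nearly the same pattern. The gene most like Postn was Dlg2 (Pearson r = 0.965 over 20 arrays), that most like Kctd12 was Abi3bp (0.968), that most like Cxcl12 was Tgfbr2 (0.954), that most like Tfpi was Fah (0.942), and that most like Klhl13 was Cox6b2 (0.932). Among the lower genes Dkk3 and Ctbp1 were each other's nearest (0.970), Ctbp1 was also the nearest to Xist (0.947), Slc25a5 to Col8a1 (0.962) and the ribosomal protein gene Rpl6 to Mif (0.976). These values are descriptions over arrays that share the genotype difference, and both genes of a pair were measured on the same arrays.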

How the data were processed

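The arrays were two-colour spotted arrays, with the sample in Cy5 and a common pool of fibroblast mRNA in Cy3, per the labels. The values are the authors' deposited log ratios per probe, treated here as log2. No source used here names the base. A log10 scale is not possible for a 16-bit signal, as the maximum would be 4.82 and values reach 10.2 in size, and on a natural log scale the folds printed would be too small. Background correction and normalization within arrays are not given in the sources used here.

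Each array was centred on its median. Of 42624 probes 21701 list 1 gene (10843 genes), 1124 list several and 19799 none, and 21650 gene IDs matched the RefSeq table with 0 symbols changed. Probes needed at least 2 values in each of 6 groups (genotype at 0 h, at 0.5 to 2 h and at 3 to 8 h), and the probes of a gene were averaged after each was set relative to its own mean. Of the 10625 genes tested 5182 had 1 probe. Of all values 3.28% were missing, and each array held between 39037 and 42220. Precision is limited by the number of arrays.

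All 20 arrays entered limma 3.58.1 (R 4.3.3; lmFit and eBayes, 2-sided contrasts), so that the groups shared 1 estimate of the spread per gene, with Benjamini-Hochberg adjustment over all genes and a threshold of 0.05. The code was tested on simulated data. Figures were drawn with matplotlib 3.10.9 in Python 3.11.15. The alternatives were the 6 arrays alone, no centring, quantile normalization, scaling of array width, 1 probe per gene, probes with a value on all 20 arrays, no filter on missing values, array weights, the replicate number as a block, and each 0 h array left out.

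The members and the 55 gene lists were chosen with earlier results of these data known. The rule for naming takes 273 genes: the 20 largest rises and falls that held; up to 4 members per list and direction that passed, by smallest p, those that held first; measured members of the HOX, imprinted, X and Y, and heat shock factor lists; neighbours of Hsf1 that passed; genes that held on the 3 chromosomes of largest absolute median; genes of probes without a value in 1 genotype; and the gene most like each of 5 leading genes per direction. The genes described are a selection of these made with their values known, and counts cover the others. The heat shock factor list holds 3 measured genes, none of which passed in limma, and 0 had an unadjusted p under 0.05. Genes outside the rule (Hspa1a, Hspa8, Hspe1, Hsph1, Dnajb1, Cryab, P4ha1, Ppib, Pfdn4, Rps18, Islr and the fibroblast markers by level) were chosen after their values were seen. Promoter windows and sequences are from RefSeq (GRCm38.p6), and they matched 8572 genes.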

Additional observations from a re-analysis of the deposited data

Results flagged for a closer look

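For 10 genes the KO minus WT difference in the later heated window (3, 4, 6 and 8 h) differed from that at 0 h, by a test of the difference itself (limma, Benjamini-Hochberg adjusted p over all genes). In 3 of them a baseline difference that passed was near 0 in the heated arrays: the difference moved by -1.56 for Islr (adjusted p = 0.0438), by -1.38 for Lipa (0.0438) and by 1.82 for Zdhhc16 (0.0438), the last of these as the mean of 2 probes that disagree in size.

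In 5 chaperone genes the baseline difference did not pass and the KO minus WT difference was more negative in the later window. For Hspa1a the WT arrays of 3 to 8 h stood at 2.55 to 3.92 and the KO arrays at -2.84 to -2.38, against -2.76 to -2.37 on the KO arrays of 0 h. The difference moved by -5.84 for Hspa1a (adjusted p = 0.0438), by -5.80 for Hspa1b (0.0438), by -2.11 for Dnajb1 (0.0402), by -1.77 for Hspb8 (0.0402) and by -1.64 for Cryab (0.0360). The remaining 2 genes are known from cell division: Fbxo5, an inhibitor of the anaphase-promoting complex, went from -0.52 at 0 h to 0.72 (a move of 1.24, adjusted p = 0.0438), and Rrm1, a subunit of ribonucleotide reductase, from 0.54 to -1.21 (a move of -1.75, adjusted p = 0.0498). The later window has 1 array per genotype and time, so time and array cannot be told apart within it.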

How the results depend on the processing

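The count of genes that passed fell from 705 (323 higher, 382 lower) to 109 (54 and 55) with only the 6 arrays of unheated cells in the limma fit. Quantile normalization left 232 lower genes and scaling of array width 225. Leaving out each array in turn gave 423 to 730 genes in all, 197 to 365 higher and 209 to 365 lower. The labels do not say whether the replicate numbers pair the samples. Deviations of same-numbered arrays correlated across genes at 0.01, -0.01 and -0.01. Such values cannot exclude that the samples were matched. With the replicate block in the fit of 20 arrays 773 genes passed and Dnajb5, Gli3, Ldhb and Ube2c did not, and with the replicate block and only the 6 arrays 0 passed (0 higher, 0 lower), where 1536 had an unadjusted p under 0.05 in limma. Of the 291 genes that held, 284 passed after quantile normalization, 279 after scaling of array width and 254 with 1 probe per gene. Of the 147 genes named that passed, 55 passed with only the 6 arrays, 136 without centring, 125 after quantile normalization, 122 after scaling of array width and 113 with 1 probe per gene.

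With 1 probe per gene the difference changed sign to -0.86 for Apoe, -0.17 for Fgfr1, -1.53 for Gas1, -0.13 for Gstm1, 0.61 for Hspe1 and 0.087 for Htra1, which also read 0.087 with probes valued on all 20 arrays. Without centring Eif2s3y turned to 0.046 and Hspa1a to 0.0027. With single arrays left out Eif2s3y ranged from -0.27 to 0.18 and Kdm5c from -0.024 to 0.26. For Eif2s3y, Hspa1a, Hspe1 and Kdm5c neither sign passed. Without centring the median of all genes was 0.16 in place of 0.05. The medians of gene lists and chromosomes moved by less than the spread between arrays in 843 of the alternatives computed and by more in 193. The cause of these changes was not tested.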

Other observations

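Probes that list several genes or none were not used above. In a limma fit across probes they passed at a rate close to that of the other probes: of 19572 tested 398 were higher and 1124 lower in KO cells (7.78%), against 604 and 1108 of 20881 probes that list 1 gene (8.20%). A single gene can have many such probes, so these shares do not count genes.

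Among genes with several probes, all probes had the same sign in 2662 of 5443 genes tested, in 378 of 427 that passed and in 156 of 174 that held. The calls themselves use the mean of these probes, so this share describes them and is no separate support.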
